A study of Mus musculus with 11 samples.

Results

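The angiopoietin and Tie system was described here through 6 genes: the secreted ligands Angpt1, Angpt2 and Angpt4, the receptors Tek (also called Tie2) and Tie1, and the receptor phosphatase Ptprb (VE-PTP). They were taken by symbol from a gene-by-cell table of read counts, and all 6 were found among its 23507 gene rows. The table held 3261 single cells of the stromal vascular fraction of mouse perigonadal white adipose tissue, sequenced with Smart-seq2, a plate-based method that reads whole transcripts without molecular identifiers. The study asked which adipose stem cell (ASC) types this tissue contains and whether they differ between the sexes. All animals were untreated adult C57BL6/J mice that carried the Pdgfrb-GFP reporter, in which GFP is driven by the Pdgfrb promoter. Cells were sorted as PDGFRB positive, as CD31 (PECAM1) positive, or by DPP4 within the PDGFRB-positive cells, so the number of cells of each type followed the gates. The male samples were mice 1, 4 and 8 (1177 cells), and the female samples were mice 2, 3, 5 and 6/7 (2084 cells), where 6/7 names 2 animals that the labels do not separate.

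Angiopoietins are secreted growth factors that bind Tek, a receptor tyrosine kinase best known from endothelial cells. Angpt1 activates Tek and steadies vessels, while Angpt2, which endothelial cells make and store themselves, can block or activate the receptor depending on context, and Angpt4 is a less studied ligand of the same receptor. Tie1 is a related receptor that pairs with Tek, and Ptprb removes phosphate groups from Tek on endothelial cells.

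The members lie on different chromosomes except for the receptors, which both lie on chromosome 4 (mm10, GENCODE vM21). Angpt1 (ENSMUSG00000022309) spans chr15:42424723-42676977 on the minus strand and had 11255 reads in 525 cells. Angpt2 (ENSMUSG00000031465) spans chr8:18690263-18741562 on the minus strand, inside the span of Mcph1 on the other strand, and had 24816 reads in 409 cells. Angpt4 (ENSMUSG00000027460) spans chr2:151911210-151945337 on the plus strand and had 29742 reads in 467 cells. Tek (ENSMUSG00000006386) spans chr4:94739289-94874976 on the plus strand and was the most widely detected member, with 157024 reads in 2200 cells (67.5%). Tie1 (ENSMUSG00000033191) spans chr4:118471191-118490061 on the minus strand, with 145676 reads in 902 cells. Ptprb (ENSMUSG00000020154) spans chr10:116275523-116389535 on the plus strand, overlaps the predicted gene Gm47625 on the same strand, and had 154336 reads in 950 cells. The Smart-seq2 reads do not keep the strand, so reads from Angpt2 and Mcph1 exons that overlap cannot be told apart, nor can those of Ptprb and Gm47625.

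The sequences before the transcription starts of Angpt4 and Tek are shown because these members had reads in ASC-like cells together with the widest spread between mice (Angpt4) and the most even level (Tek). They are the 250 bases 5′ of the start (RefSeq, GRCm38.p6), at chr2:151910957-151911206 for Angpt4 and chr4:94739039-94739288 for Tek, both on the plus strand and written 5′ to 3′. Capitals mark GGAA, the core of ETS-factor motifs, read on both strands (TTCC on the printed strand), and the TATA box letters TATAAA.
Angpt4: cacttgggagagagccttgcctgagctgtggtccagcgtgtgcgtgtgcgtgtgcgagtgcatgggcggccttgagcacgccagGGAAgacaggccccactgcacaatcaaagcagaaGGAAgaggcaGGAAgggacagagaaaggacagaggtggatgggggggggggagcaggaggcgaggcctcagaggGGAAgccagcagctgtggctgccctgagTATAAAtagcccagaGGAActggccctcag
Tek: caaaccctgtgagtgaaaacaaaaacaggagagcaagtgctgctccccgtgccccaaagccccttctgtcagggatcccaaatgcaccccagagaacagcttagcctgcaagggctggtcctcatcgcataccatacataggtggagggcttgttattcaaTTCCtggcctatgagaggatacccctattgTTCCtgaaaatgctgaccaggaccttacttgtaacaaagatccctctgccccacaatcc
The Angpt4 window held 5 GGAA matches and 1 TATAAA, which ended 25 bases before the start, and 62.4% of its bases were G or C. The Tek window held 2 GGAA matches, no TATAAA and 51.2% G or C. Of 32851 mouse promoter windows of this length, 93.4% held at least 1 GGAA, with a median of 3, 18.0% held as many as Angpt4, and 12.4% held TATAAA on either strand. Promoters in the reference table matched 3 of the 6 members. The third, Tie1, lies largely within an annotated exon and is not printed, and it held 7 GGAA matches, as many as 3.82% of windows.

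Cells were clustered without the 6 members and without 2 lists of related genes, and clusters were named from fixed markers as ASC-like (2250 cells), endothelial (EC)-like (570), pericyte-like (60), vascular smooth muscle cell (VSMC)-like (41) and macrophage-like (137). Smaller classes were lymphatic EC-like (22) and epithelial-like (19), and 162 cells stayed unnamed. The median cell had 616939 reads in genes (range 141935 to 3526227) and 5219 genes detected. Levels are given in CPM, which is reads scaled to 1e6 of a mouse's summed gene reads outside ribosomal RNA for cells of 1 class, with at least 10 cells per sum. Ribosomal RNA took 29.9% to 66.7% of a mouse's gene reads, and the ranges of males and females overlapped. EC-like sums came from 5 mice, ASC-like sums from 7, pericyte-like sums from mice 1 and 2, VSMC-like sums from mouse 1 and macrophage-like sums from mice 1 and 5, so the last 3 classes rest on 1 or 2 samples. EC markers (Pecam1, Cdh5, Kdr and Cldn5, all 4 with reads in every class) summed to 10773 CPM in EC-like cells (6079 to 12427 over mice), 15.0 CPM in ASC-like cells (5.40 to 41.5), 46.8 CPM in macrophage-like cells (13.4 to 70.9), 37.4 CPM in VSMC-like cells and 5309 CPM in pericyte-like cells (2553 to 7624). The pericyte-like cells therefore carried many EC marker reads, and the part these played in the levels below was not tested beyond the split by EC reads given there. Those of mouse 2 were 13 cells, all from the PDGFRB-negative, CD31-positive gate. Of 10 adipocyte markers (Adipoq, Cfd and Car3 among them), all had reads in EC-like cells, where they summed to 5808 CPM (3196 to 6225 over mice), against 125 CPM in ASC-like cells (48.3 to 411), 1166 CPM in pericyte-like cells (1081 to 1197), 389 CPM in VSMC-like cells (no Lep read) and 444 CPM in macrophage-like cells (434 to 457). Their part in the differences between classes was not tested.

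Among the ligands, Angpt1 had its highest mean levels in mural-like cells, where few cells held the reads, and then in ASC-like cells. In ASC-like cells it ranged from 4.39 CPM (mouse 6/7) over a median of 12.1 to 21.0 CPM (mouse 8), a mean of 12.6 ± 6.02 CPM (SD, n = 7). In EC-like cells it was 5.40 CPM in mouse 1, 3.67 in mouse 2, 0.500 in mouse 5, 0.372 in mouse 6/7 and no reads in mouse 8, where 3 reads would have been 0.486 CPM. The lowest ASC value lay below the highest EC value, so the classes overlapped, although within each of the 5 mice with both classes ASC-like cells were higher. Angpt1 reached 16.3 and 36.7 CPM in pericyte-like cells of mice 1 and 2, 52.5 CPM in VSMC-like cells of mouse 1, and 0.304 and 0.302 CPM in macrophage-like cells of mice 1 and 5. The 377 reads of mouse 2 lay in 3 of 13 pericyte-like cells. Of 362 VSMC reads, 238 lay in the 6 cells with at least 10 EC marker reads. In the 51 mural-like cells with under 10 such reads Angpt1 was at 14.7 CPM, beside 9.62 CPM in ASC-like cells under that limit.

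Angpt2 had the opposite pattern between ASCs and ECs. EC-like cells had 144 CPM in mouse 1, 93.7 in mouse 2, 44.5 in mouse 5, 61.0 in mouse 6/7 and 329 in mouse 8, with a mean of 135 ± 115 CPM (SD, n = 5). ASC-like cells ran from 0.179 CPM (mouse 3) over a median of 1.34 to 5.24 CPM (mouse 6/7), so every EC value was above every ASC value. How many of all genes keep EC-like and ASC-like values apart, for this member or those below, was not counted. Mural cells lay within the EC range, with 190 and 87.6 CPM in pericyte-like cells of mice 1 and 2 and 134 CPM in VSMC-like cells of mouse 1. Macrophage-like cells had 1.96 and 0.905 CPM in mice 1 and 5.

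Angpt4 was an ASC and VSMC ligand with a very wide spread. ASC-like cells had 1.96 CPM in mouse 2, 2.04 in mouse 6/7, 6.25 in mouse 3, 28.5 in mouse 8, 38.3 in mouse 5, 75.8 in mouse 4 and 161 in mouse 1, a mean of 44.9 ± 57.8 CPM (SD, n = 7). The SD was larger than the mean, and the highest mouse was far from the lowest. VSMC-like cells of mouse 1 had 135 CPM, while pericyte-like cells of the same mouse had 0.652 CPM and those of mouse 2 no reads. EC-like cells held 3 Angpt4 reads in all, and macrophage-like cells 2. Pooled over cells, ASC-like cells were at 30.3 CPM and EC-like cells at 0.0163 CPM (exact Poisson interval 0.00335 to 0.0475), a ratio of 1866 with a 95% counting interval of 639 to 9050 that covers counting error only.

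The receptor Tek was measured in ECs, pericyte-like cells and, in every mouse, ASCs. ASC-like cells ran from 75.3 CPM (mouse 5) over a median of 99.8 to 138 CPM (mouse 3), a mean of 105 ± 22.9 CPM (SD, n = 7). EC-like cells had 167 CPM in mouse 1, 263 in mouse 2, 304 in mouse 5, 271 in mouse 6/7 and 278 in mouse 8, a mean of 257 ± 52.4 CPM (n = 5). The ranges did not overlap, and Tek was the member with the smallest relative spread in ASC-like cells. Pericyte-like cells of mice 1 and 2 had 181 and 90.9 CPM, but VSMC-like cells of mouse 1 had 1.02 CPM, macrophage-like cells of mice 1 and 5 had 1.22 and 0.422 CPM, and epithelial-like cells of mouse 1 had 0.651 CPM.

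Of the 5 classes compared here, Tie1 and Ptprb were highest in EC-like cells and next in pericyte-like cells. Tie1 was 730 CPM in EC-like cells of mouse 1, 748 in mouse 2, 344 in mouse 5, 473 in mouse 6/7 and 1316 in mouse 8 (mean 722 ± 373, n = 5). Its highest value in ASC-like cells was 1.03 CPM (mouse 8), with a mean of 0.392 ± 0.318 CPM (n = 7). Ptprb was 923, 663, 677, 542 and 843 CPM in EC-like cells of mice 1, 2, 5, 6/7 and 8 (mean 730 ± 152, n = 5), and 0.535 ± 0.305 CPM in ASC-like cells (n = 7). For both genes the EC and ASC values were far apart and did not overlap. Pericyte-like cells of mice 1 and 2 had 357 and 312 CPM of Tie1 and 484 and 579 CPM of Ptprb, whereas VSMC-like cells of mouse 1 had 2.47 and 9.87 CPM. The paper counts Tie1 and Ptprb among canonical EC markers. It proposes that EC fragments contaminated part of its pericytes, and it also examined pericytes after removing those positive for EC markers. Macrophage-like cells had 5.43 and 0.663 CPM of Tie1 and 7.43 and 0.422 CPM of Ptprb in mice 1 and 5, in the order of their EC marker sums of 70.9 and 13.4 CPM.

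**Figure D1:**
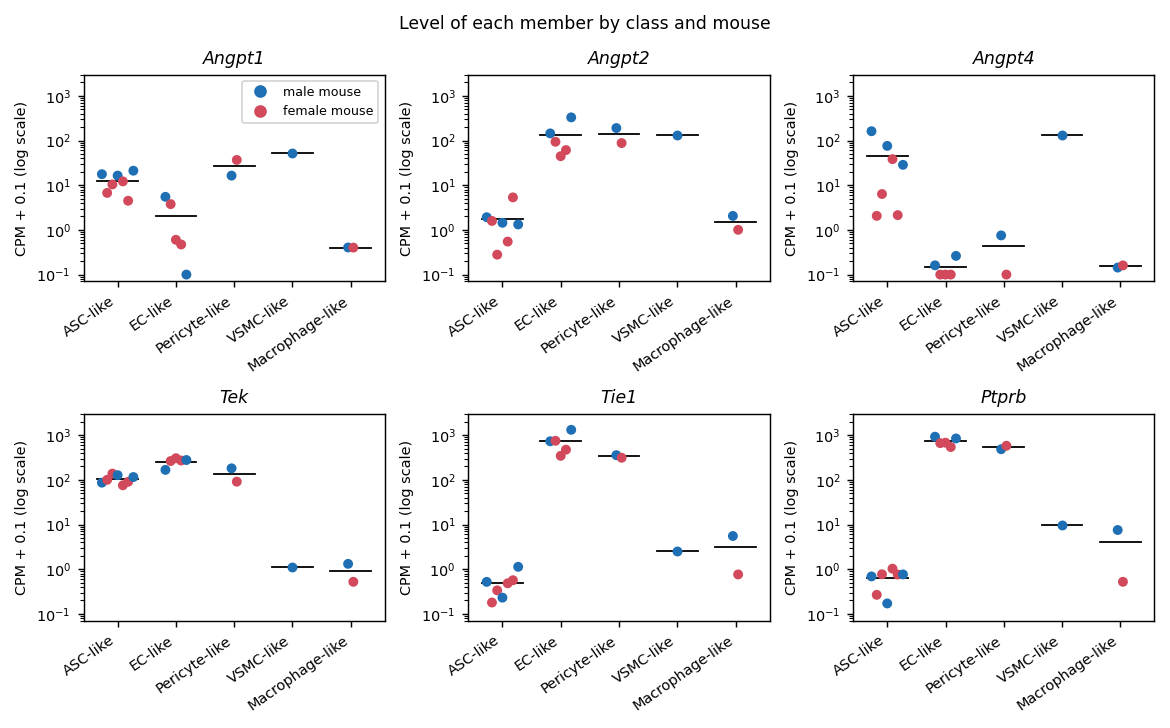
Level of each of the 6 members (CPM + 0.1, log axis) by cell class, with 1 point per mouse coloured by sex and a line at the mean. Tie1 and Ptprb sit near the bottom of the axis in ASC-like cells, while Tek does so in none of the 7 mice.

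Scaled per kilobase of annotated exon, which allows levels of different genes to be compared, Tek was at 22.2 ± 4.86 CPM per kb in ASC-like cells (SD, n = 7), Angpt4 at 19.2 ± 24.7, Angpt1 at 2.42 ± 1.16 and Angpt2 at 0.455 ± 0.454. Tie1 and Ptprb were at 0.080 and 0.040 CPM per kb there. The receptor Tek thus led in ASC-like cells together with a ligand whose spread between mice was larger than its mean. In EC-like cells Tie1 led at 147 ± 76.0 CPM per kb (n = 5), followed by Ptprb at 54.7 ± 11.4, Tek at 54.5 ± 11.1 and Angpt2 at 36.5 ± 31.3. The means of Ptprb and Tek differed by less than their SDs. In VSMC-like cells of mouse 1 the order was Angpt4 (57.9 CPM per kb), Angpt2 (36.4) and Angpt1 (10.1).

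Class differences were tested across all genes with edgeR's quasi-likelihood test on sums per mouse and class, with the mouse as a block. A gene was called at a Benjamini-Hochberg adjusted p under 0.05 and a fold above 2.6. Between EC-like and ASC-like cells 21.7% of the 12851 genes tested were called, and 5 of the 6 members were. Tie1 was higher in EC-like cells by 10.48 on the log2 scale (SE 0.79, edgeR adjusted p = 2.77e-05), Ptprb by 10.10 (SE 0.92, 7.12e-05) and Angpt2 by 5.94 (SE 0.64, 0.00016). Angpt4 was lower in EC-like cells, with a log2 fold change of -10.74 (SE 1.19, edgeR adjusted p = 0.00019), a fitted value that rests on 3 EC reads and is no bound. Angpt1 was lower by a log2 fold change of -3.41 (SE 1.09, edgeR adjusted p = 0.0456), a call that was lost when mouse 1, 2, 5 or 6/7 was left out (-4.11, -3.97, -3.12 and -3.24), and with library totals, a lower read minimum, classes from each cell's markers or few EC reads (adjusted p = 0.0511 to 0.0983). Tek was higher in EC-like cells by 1.30 (SE 0.31, edgeR adjusted p = 0.0127), under the fold needed for a call, and it passed without mouse 1, 2 or 8 (log2 1.41 each) and with library totals (1.47).

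Mural-like cells (pericyte-like and VSMC-like together, mice 1 and 2) were compared with ASC-like cells, where 8.11% of tested genes were called and 3 of the 6 members were. The mouse 2 sample was 13 pericyte-like cells from the PDGFRB-negative, CD31-positive gate. All of them had at least 10 EC marker reads, and their EC marker sum was 7624 CPM. Ptprb was higher in mural-like cells by 9.42 on the log2 scale (SE 1.13, edgeR adjusted p = 0.00175), Tie1 by 9.21 (SE 0.91, 0.000664) and Angpt2 by 6.09 (SE 0.75, 0.00203). The Angpt2 call was lost without mouse 1 (log2 5.64), which left 1 mural sample, and the Ptprb call with classes from each cell's markers (6.64). Tek differed by -0.14 (SE 0.44, edgeR adjusted p = 0.911), Angpt1 by 0.39 (SE 1.47, 0.928) and Angpt4 by -2.20 (SE 1.12, 0.291), none of which passed.

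The receptor levels of pericyte-like cells moved with their EC reads. Of 60 pericyte-like cells, 16 (26.7%) had under 10 reads in the 4 EC markers, and these had 1.23 CPM of Tek (2 reads), 2.46 CPM of Ptprb and 27.1 CPM of Tie1, all of the Tie1 reads in 1 cell. The other 44 cells had 138 CPM of Tek, 576 of Ptprb and 359 of Tie1. Angpt2, in contrast, was at 306 CPM in the 16 cells with few EC reads and 111 CPM in the 44. Angpt1 had no reads in the 16 cells and was at 29.8 CPM in the 44, whereas in 35 VSMC-like cells with under 10 EC reads it was at 18.2 CPM, beside 134 CPM of Angpt2 and 128 CPM of Angpt4. The pooled split mixed mice and gates, since the 16 cells were 14 from the PDGFRB-positive plate of mouse 1 and 2 of mouse 5, and the 44 held all 18 cells from CD31-positive sorts of mice 1 and 2. Within the PDGFRB-positive plate of mouse 1, the 14 cells with few EC reads had 1.62 CPM of Tek and 3.25 of Ptprb, and the 25 others 284 and 669 CPM, while Angpt2 was at 403 and 36.9 CPM. With cells of under 10 EC reads alone on the mural and ASC sides, where the mural side was 1 sample (mouse 1) whose spread was assumed to be that of the other sums, Tek was lower in mural-like cells than in ASC-like cells by a log2 fold change of -6.01 (edgeR adjusted p = 0.0297). In the same fit the log2 fold changes were 3.37 for Ptprb, 6.88 for Angpt2 and 4.38 for Tie1, and 44 Tie1 reads of the mural side came from 1 cell.

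The pooled level of Tek in ASC-like cells was similar on both sides of the EC read split. It was 107 CPM in the 1870 ASC-like cells with under 10 EC marker reads and 105 CPM in the 380 with more. The share of these cells with a Tek read was 74.1% and 65.0%. In the 474 ASC-like cells with no EC marker read at all Tek was at 111 CPM, and 74.7% of them had a Tek read. The ASC split pooled mice and gates and was not made within a mouse. In macrophage-like cells, Tie1 was at 0.75 CPM in 71 cells with under 10 EC reads and 5.81 CPM in 66 with more, and Ptprb at 1.40 and 7.24 CPM. This split nearly equalled mouse and gate, since 58 of the 71 cells came from mouse 5 and 63 of the 66 from the CD31-positive plate of mouse 1. Within that plate Ptprb was at 6.78 CPM in 10 cells with few EC reads and 7.44 CPM in the 63, and Tie1 at 1.99 (5 reads) and 5.95 CPM.

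**Figure D2:**
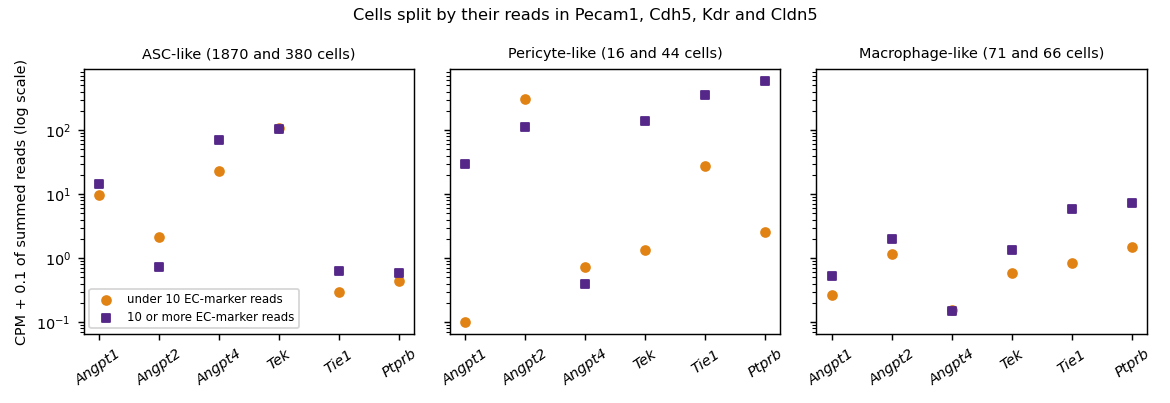
Pooled level (CPM) of the members in ASC-like, pericyte-like and macrophage-like cells split by fewer than 10 or at least 10 reads in 4 EC markers, with 1870 and 380, 16 and 44, and 71 and 66 cells. Tek is level across the split in ASC-like cells (107 and 105 CPM) and not in pericyte-like cells (1.23 and 138 CPM).

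Macrophage-like cells (mice 1 and 5) differed from ASC-like cells in 15.1% of tested genes, and 3 of the 6 members were called. Tek was lower in macrophage-like cells, with a log2 fold change of -6.66 (SE 0.62, edgeR adjusted p = 0.000236), as was Angpt4 (-10.82, SE 1.72, 0.00311), whose call was lost without mouse 1 (-8.87). Tie1 was higher by 2.98 (SE 0.80, edgeR adjusted p = 0.0342) at levels of a few CPM, and its call was lost without mouse 1 (1.40) or 6/7 (3.06) and in cells with under 10 EC reads (1.93), with a lower read minimum (2.72) or with classes from each cell's markers (2.51). Angpt1 (-5.66, SE 1.76, edgeR adjusted p = 0.0595), Ptprb (2.50, SE 0.99, 0.129) and Angpt2 (0.33, SE 0.78, 0.845) did not pass. Leaving out mouse 1 or 5 left 1 macrophage sample, whose spread was assumed to be that of the other sums: Ptprb was then at -0.63 without mouse 1 and 4.14 without mouse 5. Angpt1 passed without mouse 8 (-5.33) and under the likelihood ratio test and DESeq2 (-5.66 and -5.65).

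Between EC-like and mural-like cells 2.28% of tested genes were called, with 1 member among them. Angpt4 was lower in EC-like cells, with a log2 fold change of -8.53 (SE 1.54, edgeR adjusted p = 0.0204), a difference carried by the VSMC-like cells of mouse 1: it turned to 0.83 without that mouse, with mouse 2 then the only mural sample, and the call was also lost without mouse 5 (-8.30). Angpt1 (-3.80, SE 1.20, edgeR adjusted p = 0.179), Tek (1.44, SE 0.47, 0.201), Tie1 (1.27, SE 0.79, 0.533), Ptprb (0.68, SE 0.96, 0.825) and Angpt2 (-0.15, SE 0.71, 0.953) did not pass. When cells with under 10 EC reads stood for the mural side, which left mouse 1 alone there with its spread assumed from the other sums, the log2 fold change was 7.35 for Tek and 6.52 for Tie1.

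**Figure D3:**
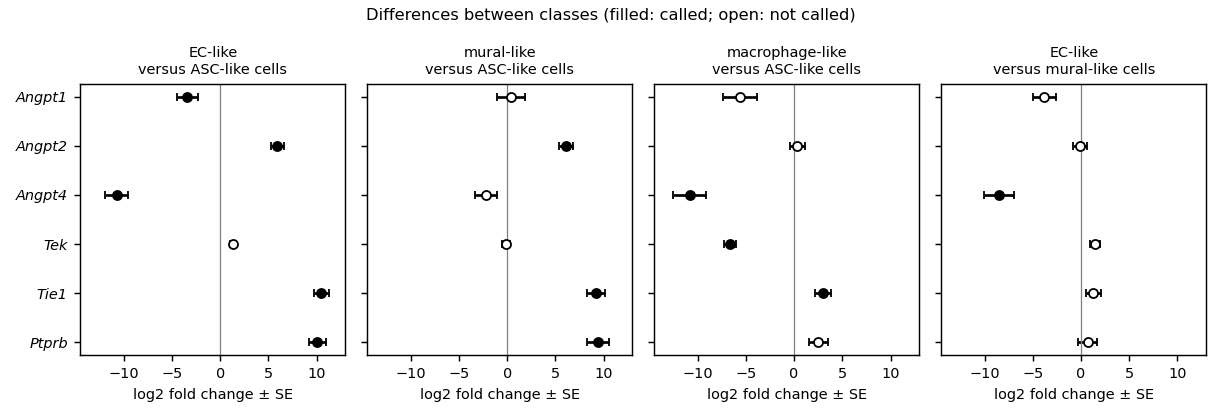
Log2 fold change with its SE (bars) for the 6 members in 4 class comparisons, with filled points for called members. In EC-like against ASC-like cells 5 members are called, with Tie1 at 10.48 and Angpt4 at -10.74 at the ends.

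The share of cells with a read gives the same members at another scale, after thinning each cell to 150000 reads outside ribosomal RNA. Tek was detected in 60.8% of 2088 ASC-like cells (exact binomial interval 58.6 to 62.9%) and 67.8% of 422 EC-like cells (63.1 to 72.2%), but in 8.26% of 109 macrophage-like cells. The median depths before thinning were 373984, 252489 and 271251 reads. Ptprb was detected in 94.3% of EC-like cells (91.7 to 96.3%) and 3.69% of ASC-like cells, and Tie1 in 85.8% (82.1 to 89.0%) and 3.16%. Angpt2 was found in 25.8% of EC-like cells (21.7 to 30.3%) and in 55.9% of 34 pericyte-like cells, while Angpt1 and Angpt4 were found in 15.0% and 13.5% of ASC-like cells. Pooled over mice, the ligands were therefore minority transcripts in ASC-like cells where Tek was in most, though not in mouse 5. Of the thinned ASC-like cells, 168 had both Tek and Angpt1, and Angpt1 was detected in 13.2% of cells with Tek and 17.8% of cells without.

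ASC-like cells were next divided within each mouse by marker scores into ASC1a-like (819 cells), ASC1b-like (659) and ASC2-like (772) cells. ASC2 is the DPP4-marked type, and 495 of the 2250 cells (22.0%) lay near a boundary between types. Scores were set relative to the ASC-like cells of the same mouse, so every mouse was given cells of each type whatever its make-up. In the paper's clusters, male ASC2 cells came almost all from mouse 1, and male ASC1a cells from mice 4 and 8. The types here therefore rank cells within a mouse and may not match between mice. Tek was highest in ASC2-like cells: by mouse it ran from 132 CPM (mouse 6/7) over a median of 176 to 260 CPM (mouse 4), against 42.5 to 110 CPM in ASC1a-like cells and 11.2 to 82.5 CPM in ASC1b-like cells. ASC2-like values overlapped neither of the other types, and in 7 of 7 mice the order was ASC2-like, ASC1a-like, ASC1b-like. The share of all genes with such a gap or order was not counted. Mean levels were 186 ± 42.9, 79.8 ± 25.3 and 47.5 ± 28.3 CPM (SD, n = 7).

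Angpt1 ran the other way. Its level in ASC1b-like cells ran from 9.25 CPM (mouse 6/7) over a median of 16.6 to 35.9 CPM (mouse 8), with a mean of 18.8 ± 8.93 CPM, and in ASC2-like cells from 1.40 (mouse 6/7) over 4.35 to 15.7 CPM (mouse 1), with a mean of 6.99 ± 5.89 CPM (n = 7). The ranges overlapped, and ASC1b-like cells were higher in 6 of 7 mice, with ratios from 0.94 to 7.67. ASC1a-like cells lay between at 12.6 ± 9.02 CPM. Angpt4 was at 104 ± 153 CPM in ASC1b-like, 25.8 ± 30.9 in ASC1a-like and 12.1 ± 13.2 in ASC2-like cells (n = 7), with a single mouse (mouse 1) at 429 CPM in ASC1b-like cells.

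In ASC1b-like against ASC2-like cells 3.03% of 11145 tested genes were called, and 2 of the 3 members with enough reads were. Tek was lower in ASC1b-like cells, with a log2 fold change of -2.13 (SE 0.28, edgeR adjusted p = 6.68e-05), and Angpt1 was higher by 1.91 (SE 0.42, 0.00625), a call lost when the mouse was not a block (1.52). Angpt4 (2.599, SE 0.80, edgeR adjusted p = 0.0552) did not pass, and it did without mouse 6/7 (2.84) and under the likelihood ratio test and DESeq2 (2.59 each). In ASC1a-like against ASC2-like cells 3.21% of genes were called and no member: Tek was lower at -1.27 (SE 0.26, edgeR adjusted p = 0.0038), under the fold needed, Angpt1 was at 1.105 (SE 0.42, 0.12) and Angpt4 at 1.22 (SE 0.77, 0.43). Angpt1 passed there without mouse 5 (1.40). In ASC1a-like against ASC1b-like cells 0.188% of genes were called and again no member, with Tek at 0.86 (SE 0.26, edgeR adjusted p = 0.185), Angpt1 at -0.81 (SE 0.41, 0.508) and Angpt4 at -1.38 (SE 0.83, 0.601).

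**Figure D4:**
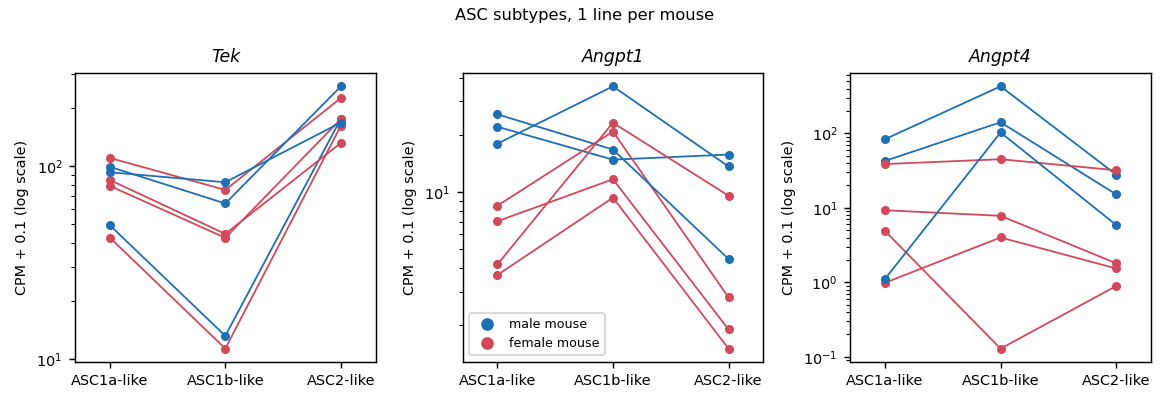
Level (CPM) of Tek, Angpt1 and Angpt4 in ASC1a-like, ASC1b-like and ASC2-like cells, with 1 line per mouse (7 mice). All 7 lines for Tek peak in ASC2-like cells, while Angpt1 is higher in ASC1b-like than ASC2-like cells in 6. The share of all genes with such an order was not counted. Types were set relative to the cells of each mouse.

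The DPP4 sort of mouse 2 gave a comparison that used no marker scores, with 1 plate on each side and therefore no test. DPP4-positive ASC-like cells (379) had 161 CPM of Tek (counting interval 159 to 163), and DPP4-negative cells (368) had 47.6 CPM (46.7 to 48.6). A Tek read was found in 339 (89.4%) and 217 (59.0%) of these cells. Angpt1 lay in the opposite direction, at 2.41 CPM (2.19 to 2.65) in DPP4-positive and 10.3 CPM (9.82 to 10.7) in DPP4-negative cells, and Angpt4 was low in both (1.495 and 2.364 CPM). The intervals cover counting error only.

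Most Angpt4 reads of ASC-like cells came from 1 small cluster led by C7, Chrdl1 and Itgbl1. Its 147 cells (6.53% of ASC-like cells) held 86.9% of the Angpt4 reads, at 388 CPM, and 112 of them had an Angpt4 read. They came mainly from the males, with 63 cells of mouse 1, 66 of mouse 4 and 17 of mouse 8. Tek was at 13.9 CPM in this cluster, against 241 CPM in the ASC-like cluster where it was highest.

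The sexes were compared within ASC-like and within EC-like cells. In ASC-like cells, Angpt1 was 17.5, 16.3 and 21.0 CPM in males 1, 4 and 8 and 6.63, 10.3, 12.1 and 4.39 CPM in females 2, 3, 5 and 6/7. All males lay above all females (18.3 ± 2.44, n = 3, against 8.35 ± 3.48, n = 4). How many of all genes separate the sexes in this way, here or within the types below, was not counted. The mean of Angpt4 was 88.6 ± 67.4 CPM for the 3 males and 12.1 ± 17.5 CPM for the 4 females, but female mouse 5 (38.3 CPM) lay above male mouse 8 (28.5 CPM), so the sexes overlapped. Tek had overlapping values, with means of 110 ± 21.0 CPM (males) and 101 ± 26.7 CPM (females). The sort differed between mice, since mice 3, 4 and 5 were sorted for PDGFRB alone and all ASC-like cells of mouse 2 came from the DPP4 gates, and each mouse had its own plates, so plate and mouse cannot be told apart. Within types, Angpt1 did not overlap between the sexes in ASC1a-like cells (17.9 to 25.6 CPM in males, 3.57 to 8.38 in females) and overlapped in ASC1b-like (14.7 to 35.9 and 9.25 to 23.1) and ASC2-like cells (4.35 to 15.7 and 1.40 to 9.48). Angpt4 did not overlap in ASC1b-like cells (103 to 429 CPM in males, 0.029 to 44.9 in females) and overlapped in ASC1a-like (1.01 to 83.6 and 0.887 to 38.7) and ASC2-like cells (5.80 to 27.9 and 0.792 to 31.9). Types were set relative to the cells of each mouse, so they may not match between the sexes.

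Across ASC-like cells 2.23% of 11821 genes were called between the sexes, and none of the 3 members tested was. Angpt1 had a log2 fold change, male over female, of 1.44 (SE 0.40, edgeR adjusted p = 0.101, unadjusted 0.0047), Angpt4 of 3.13 (SE 0.97, 0.134, unadjusted 0.00894) and Tek of 0.41 (SE 0.31, 0.493). Angpt4 passed without mouse 5 (4.88), the one female whose value lay within the male range. At an unadjusted p under 0.05, 2298 genes passed. Under edgeR's likelihood ratio test both Angpt1 and Angpt4 passed (adjusted p = 0.0263 and 0.0179), and under DESeq2 Angpt1 did (0.0197). The paper used the likelihood ratio test on these cells and DESeq2 on separately sorted bulk ASCs. It lists Angpt1, higher in males, in its core set of sexually dimorphic genes. That set was shared by these cells and the bulk ASCs of both perigonadal and inguinal fat. In inguinal ASCs of castrated males the paper reports reduced Angpt1, and it proposes control by androgens.

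In EC-like cells the sort also differed between the sexes. Most male EC-like cells came from gates whose labels name no exclusion of PDGFRB-positive cells. Most of females 2 and 6/7 came from PDGFRB-negative, CD31-positive gates, and those of female 5 from a PDGFRB-positive plate. Sort and sex therefore cannot be fully told apart. Angpt2 in EC-like cells was 144 and 329 CPM in males 1 and 8 and 93.7, 44.5 and 61.0 CPM in females 2, 5 and 6/7, with no overlap (237 ± 131, n = 2, against 66.4 ± 25.03, n = 3). Ptprb did not overlap either (883 ± 56.7 against 627 ± 74.3 CPM), while Tie1 (1023 ± 414 against 522 ± 206) and Tek (222 ± 78.2 against 279 ± 21.9) did. With 2 males and 3 females values can easily separate by chance, and the share of all genes that do so was not counted. Only 0.0490% of 8164 genes were called between the sexes in EC-like cells, 622 passed at an unadjusted p under 0.05, and none of the 4 members tested was called. The log2 fold changes, male over female, were 2.11 for Angpt2 (SE 0.57, edgeR adjusted p = 0.597, unadjusted 0.00558), 1.23 for Tie1 (SE 0.51, 0.649), 0.71 for Ptprb (SE 0.39, 0.660) and -0.08 for Tek (SE 0.45, 0.978). Angpt2 passed under DESeq2 (2.19, adjusted p = 0.0347) and, in edgeR, without mouse 1 (2.64), which leaves 1 male, whose spread is then assumed to be that of the females.

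**Figure D5:**
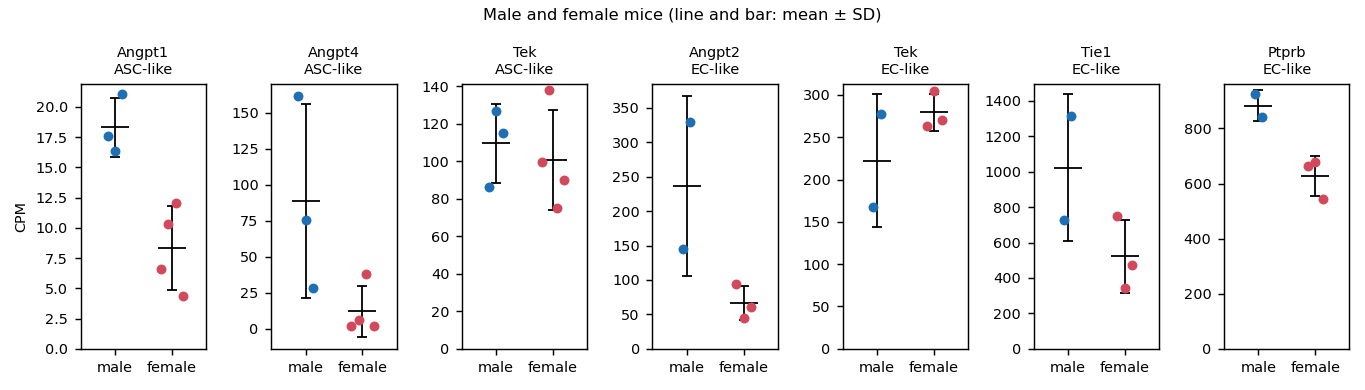
Level (CPM) of members in ASC-like and EC-like cells by sex, with 1 point per mouse and bars for mean and SD. Angpt1 in ASC-like cells and Angpt2 and Ptprb in EC-like cells did not overlap between the sexes, and none of these was called. The share of all genes without such overlap was not counted.

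Other genes of the Tie pathway were followed as a list of 14, holding binding partners, adaptors and effectors of the receptors. Of the 13 tested between EC-like and ASC-like cells, 1 was higher and 2 were lower, with a median log2 fold change of 0.076 beside -0.19 over all genes tested. These 3 of 13 stand beside the 21.7% called over all genes. Nos3, the endothelial nitric oxide synthase, was higher (8.98), and Svep1, a matrix protein that binds Tie1 (-7.32), and Pik3r1, a regulatory subunit of PI3 kinase (-1.87), were lower. In mural-like against ASC-like cells (8.11% of all genes called) Nos3 was higher (5.98) and Svep1 lower (-5.93) of 13 (median -0.85, all genes -0.21). Pooled Nos3 was at 307 CPM in EC-like, 85.3 in pericyte-like and 1.46 in VSMC-like cells. The part of the EC marker reads of pericyte-like cells in this Nos3 difference was not tested. In macrophage-like against ASC-like cells (15.1% of all genes called) 2 were higher and 3 lower (median -0.68, all genes -0.19), with Dok2, an adaptor that docks on Tek (10.19), and Tnip2 (2.07) higher and Svep1 (-7.84) and Itga5 (-2.64) lower by most. Between EC-like and mural-like cells none of 13 was called (median 0.46, all genes 0.052), and none of 10 in the subtype comparisons. Svep1 stood at 617 CPM in ASC-like cells and 8.26 CPM in EC-like cells, the reverse of Tie1.

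Between the sexes 2 of 11 tested pathway genes were called in ASC-like cells (2.23% of all genes), both higher in males, and none of 11 in EC-like cells (median 0.97, all genes -0.0021). Svep1 was at 1357 ± 995 CPM in the 3 males and 372 ± 42.7 CPM in the 4 females, with a log2 fold change of 2.10 (edgeR adjusted p = 0.026), and Itga5, the alpha-5 integrin subunit, at 310 ± 95.2 and 127 ± 37.7 CPM (1.61, 0.0477). The list's median was 0.30, beside 0.04 over all genes tested. Svep1 is in the paper's core set of sexually dimorphic ASC genes, drawn partly from these same cells. Since the list was chosen with earlier results known, its count of called genes is no test of the pathway.

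The angiopoietin-like genes share the ligand fold but do not bind Tek. Only 3 of the 7 passed the read minimum in the class comparisons (Angptl1, Angptl2 and Angptl4), so the counts below describe those. In EC-like against ASC-like cells Angptl1 (-10.18) and Angptl2 (-5.45) were lower, the latter being the median of the 3. Angptl1 was also lower in mural-like cells (-7.55), all 3 were lower in macrophage-like cells (Angptl2 -9.12, Angptl1 -4.44, Angptl4 -2.96, median -4.44), and Angptl2 was lower in EC-like than in mural-like cells (-5.96). Between the sexes none of the 3 was called in ASC-like cells, and in EC-like cells Angptl4 alone was tested and not called. Angptl4, an inhibitor of lipoprotein lipase, was at 839 CPM in ASC-like and 1821 CPM in EC-like cells, beside the adipocyte marker reads of the EC-like class given above, and Angptl2 at 509 CPM in ASC-like and 832 CPM in pericyte-like cells.

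The genes most like each member over the 18 sums of mouse and class were found by Pearson's correlation of log2(CPM + 1), given as a description, since sums of a mouse share libraries and a few classes set the values. Tie1 went with Robo4, Btnl9 and C1qtnf9 (r = 1.00 each), and Ptprb with Robo4 (1.00), Btnl9 (0.99) and Myct1 (0.99). Tek went with Grasp (0.99), Npr2 (0.97) and Galnt15 (0.97), and Angpt2 with Schip1 (0.97), Tcf15 (0.96) and Nrarp (0.96). Angpt1 went with Egflam (0.94), Foxs1 (0.93) and Serpine2 (0.92), and Angpt4 with Col4a6 (0.95), Cpxm2 (0.92) and Dusp14 (0.90). Among the members, Tie1 and Ptprb were nearest (0.99), then Angpt2 and Ptprb (0.90), whereas Tek and Tie1 were at 0.50 and Angpt4 and Tie1 at -0.63.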

How the data were processed

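The authors aligned the Smart-seq2 reads with STAR and quantified them with Salmon on mm10 (tool names per the labels), removed low-quality and mixed cells, and deposited a table of whole-number read counts per gene and cell, not normalized. How Salmon's values became whole was not given in the sources used here. No caller for doublets was run, since the authors had removed mixed cells before deposit. Many pericyte-like cells still held EC marker reads, as given above. ERCC spike-in rows (72) were left out of totals. Samples were grouped by the mouse and sex labels, and 1 of the 7 mouse numbers stands for 2 animals. The genes and lists were chosen with earlier results of these data known.

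Cells were clustered with Seurat 5.3.0 (R 4.3.3) on 2990 variable genes without the 6 members and both lists, using 14 principal components and a resolution of 1.1, and the 18 clusters were named from fixed markers. Counts were summed per mouse and class (at least 10 cells) and tested with edgeR 4.0.16 (quasi-likelihood test, TMM, more than 600 counts in at least 2 sums, adjusted p under 0.05 and fold above 2.6). Class and subtype fits had the mouse as a replicate block, since the labels give the same mouse for these sums, and pairs of classes come from the same animals. Between the sexes, p-values measure the spread between mouse samples, 7 for ASC-like and 5 for EC-like cells. In class and subtype fits they measure the variation left within mice after the block. Only mice holding at least 2 of the classes inform those contrasts, and mural-like and macrophage-like sums came from 2 mice each. The tests were run on simulated counts first. CPM was computed over gene reads outside ribosomal RNA, and log2 fold changes come from the fits. The sums used in the fits kept the ribosomal RNA reads, so their library totals include them. Shares have exact binomial intervals and ratios counting intervals, which cover counting error only. The named genes were the 6 members, up to 4 called genes of each list by size of change, and the 3 genes most like each member by correlation. Alternatives were DESeq2 1.42.0, edgeR's likelihood ratio test, RLE factors, library totals, other read and cell minimums, classes from markers per cell, cells with under 10 EC marker reads, no block, and leaving out each mouse. CPM over all gene reads and shares thinned to 50000 reads were added after the data were seen.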

Additional observations from a re-analysis of the deposited data

Results flagged for a closer look

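Sample groups of 4 to 10 mice were searched by Dixon's gap test for a single mouse far from the others. Of 36 groups, 7 held one. Chance flags about 1 in 20 only where values are normally distributed and groups are independent. Groups here share cells, since the subtypes are parts of the ASC-like cells, so the count of 7 is no test. In ASC-like cells Angpt2 was at 5.24 CPM in mouse 6/7, with the next mouse at 1.82, and Tie1 at 1.03 CPM in mouse 8, with the next at 0.466. Among females, Angpt4 in ASC-like cells was at 38.3 CPM in mouse 5, with the next at 6.25. In ASC1b-like cells Angpt4 was at 429 CPM in mouse 1 (next 141) and Angpt2 at 18.4 CPM in mouse 6/7 (next 4.46). Angpt2 in ASC1a-like cells was at 3.06 CPM in mouse 4 (next 0.902), and Ptprb in ASC2-like cells at 1.70 CPM in mouse 5 (next 0.715). Leaving out mouse 5 moved the male-female log2 fold change of Angpt4 from 3.13 to 4.88. In 24 within-mouse differences between classes or subtypes with at least 2 mice of each sex, none went one way in every male and the other way in every female, which was not tested further.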

How the results depend on the processing

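The log2 fold changes of the members were recomputed in 340 cases under other settings, of which 302 kept their direction and their side of the threshold, 20 passed newly, 11 were lost and 7 turned. Leaving out a mouse did so in 245 of 272, with 9 passing newly, 9 lost and 9 turned. The members called then ranged from 4 to 6 for EC-like against ASC-like cells, 2 to 3 for mural-like against ASC-like, 1 to 4 for macrophage-like against ASC-like, 0 to 1 for EC-like against mural-like, 2 to 3 for ASC1b-like against ASC2-like, 0 to 1 for ASC1a-like against ASC2-like, 0 to 0 for ASC1a-like against ASC1b-like, and 0 to 1 between the sexes in either class. Between the sexes in ASC-like cells, library totals called 1 member (Angpt4, 2.68), the likelihood ratio test 2 (Angpt1 and Angpt4) and DESeq2 1 (Angpt1), and in EC-like cells DESeq2 called 1 (Angpt2, 2.19). Library totals, which include ribosomal RNA reads, moved the median of all genes between the sexes to -0.60 in ASC-like and -0.79 in EC-like cells. They turned Tek in ASC-like cells to -0.22 and Ptprb in EC-like cells to -0.062. Ribosomal RNA took 66.9%, 31.7% and 58.5% of the ASC-like gene reads of males 1, 4 and 8, and 29.9% to 54.1% in females. In EC-like cells it took 65.3% and 58.2% in males 1 and 8, and 33.3% to 56.1% in females. Its part in this shift was not tested. For macrophage-like against ASC-like cells, DESeq2 and the fit without the replicate block each called 5 members, the latter with Angpt2 at -0.22. For EC-like against mural-like cells, the likelihood ratio test called 2, DESeq2 3, cells with under 10 EC reads 3 (mouse 1 alone on the mural side) and no replicate block 2, with Angpt2 at 0.19. Without the replicate block ASC1b-like against ASC2-like cells had 1 member called (Tek), with Angpt1 at 1.52. Also turned were Tek between the sexes in EC-like cells under classes from each cell's markers (0.091), and Angpt1 (-0.51) and Angpt4 (0.68) in mural-like against ASC-like cells with under 10 EC reads. Without 1 mouse in turn, changes that turned ranged, for EC-like against mural-like cells, from -9.41 to 0.83 (Angpt4), -0.26 to 2.23 (Ptprb) and -0.35 to 0.28 (Angpt2), for mural-like against ASC-like cells from -0.38 to 0.93 (Angpt1) and -0.35 to 0.016 (Tek), for Ptprb in macrophage-like against ASC-like cells from -0.63 to 4.14, and for Tek between the sexes in EC-like cells from -0.65 to 0.32. Over all genes, the 264 called between the sexes in ASC-like cells became 552 by the likelihood ratio test and 594 by DESeq2 and as few as 92 without mouse 6/7, the 4 in EC-like cells became 60, 106 and, without mouse 1, 721, and the 1042 in mural-like against ASC-like cells became 1948, 2410 and, with classes from each cell's markers, 138 (180 with under 10 EC reads, 188 without mouse 2). The causes were not tested. The class with the highest level was the same for 5 of 6 members by the mean over cells and 6 of 6 over all gene reads, and by share for 4 of 6 unthinned and 6 of 6 thinned to 50000 reads. Cells with under 10 EC reads were not run between the sexes in EC-like cells. Mural-like, macrophage-like and VSMC-like cells rest on 1 or 2 mice, and plate and mouse cannot be told apart.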

Other observations

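Classes that entered no test also held members. The 22 lymphatic EC-like cells, pooled over mice, had 1344 CPM of Tie1, 176 CPM of Ptprb, 118 CPM of Tek and 76.2 CPM of Angpt2, with 0.18 CPM of Angpt1 and no Angpt4 read. Among the 162 unnamed cells, 112 carried EC markers and were led by adipocyte genes, and had 843 CPM of Ptprb, 219 CPM of Tek, 251 CPM of Tie1 and 26.1 CPM of Angpt2. The 50 others carried ASC markers with a high mitochondrial share and had 120 CPM of Tek. The share of ASC-like cells with an Angpt4 read, after thinning, was 40.3% and 43.2% in males 1 and 4, 13 of 130 cells in male 8, and 1.74%, 2.86%, 12.8% and 2.32% in females 2, 3, 5 and 6/7.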
